A study of Mus musculus with 38 samples.

Results

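The genes described here are 9 genes of the Rac pathway: the Rac activators *Tiam1*, *Tiam2*, *Kalrn* (Kalirin), *Trio*, *Vav2* and *Vav3*, the GTPase *Rac1*, and the kinases *Pak1* and *Pak3*. They were picked by symbol, and all 9 were among the 23420 genes counted in every library. Their difference between dVenus+ and dVenus- cells was already known when they were picked, so that difference is given below as a description, without a test. RNA came from dentate gyrus granule cells of adult male *Arc*::dVenus mice on a C57BL/6J background. Their destabilized Venus reporter is under the control of the *Arc* promoter, so that dVenus+ marks cells in which this promoter was active. Every group carried this reporter. 12 mice were fear conditioned (FC), 4 mice explored the context with no shock (NS), both a day before the cells were taken, and 3 home-cage mice (HC) had no training. From each mouse, 10 dVenus+ cells and 10 neighboring dVenus- cells were aspirated from the slice and pooled by type, which gave 1 full-length cDNA library of each type per mouse and 38 libraries in all. The FC mice were processed as 3 separate experiments of 2, 4 and 6 mice. The NS and HC libraries share another sample number prefix, which was taken as 1 further experiment that the paper does not describe. Levels in FC and in the other mice thus cannot be told apart from the experiment.

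Rac is a small GTPase that is active when bound to GTP. Guanine nucleotide exchange factors (GEFs) such as Tiam, Kalirin, Trio and Vav load it with GTP, GTPase activating proteins switch it off, and active Rac acts on p21-activated kinases (Pak) and on the WAVE complex to reshape the actin cytoskeleton. In hippocampal neurons this pathway is known for building and remodelling dendritic spines, with Tiam1 acting below NMDA and EphB receptors and Kalirin at the postsynaptic density.

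RefSeq promoter windows of 300 bases, from 250 bases before to 50 after a transcription start, were at hand on GRCm38.p6 for 8 of the 9 genes, with 16 windows in all. They were searched on both strands for the cAMP response element (CRE, TGACGTCA), for its core (TGACG, which also lies inside each CRE on either strand) and for the AP-1 element (TGANTCA), since CREB is the factor the study asked about. The windows of *Tiam2* and the first window of *Pak1* are shown because these genes had the lowest fitted levels in dVenus+ relative to dVenus- cells of FC mice. Motifs are in capitals, and each sequence reads 5′ to 3′ on the strand of its gene.
*Pak1*, chr7:97788291-97788590 (+): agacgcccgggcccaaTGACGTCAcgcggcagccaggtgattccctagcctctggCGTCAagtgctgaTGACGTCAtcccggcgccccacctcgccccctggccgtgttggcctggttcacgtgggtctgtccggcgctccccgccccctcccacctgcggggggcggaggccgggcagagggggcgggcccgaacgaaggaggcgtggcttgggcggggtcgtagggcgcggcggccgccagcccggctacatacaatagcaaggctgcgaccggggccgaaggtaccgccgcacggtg
*Tiam2*, chr17:3396957-3397256 (+): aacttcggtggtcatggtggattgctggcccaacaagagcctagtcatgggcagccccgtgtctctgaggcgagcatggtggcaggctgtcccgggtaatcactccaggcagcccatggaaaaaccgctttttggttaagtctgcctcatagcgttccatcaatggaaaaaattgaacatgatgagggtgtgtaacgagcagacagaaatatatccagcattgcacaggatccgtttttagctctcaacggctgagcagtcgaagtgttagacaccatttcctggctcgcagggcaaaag
*Tiam2*, chr17:3482065-3482364 (+): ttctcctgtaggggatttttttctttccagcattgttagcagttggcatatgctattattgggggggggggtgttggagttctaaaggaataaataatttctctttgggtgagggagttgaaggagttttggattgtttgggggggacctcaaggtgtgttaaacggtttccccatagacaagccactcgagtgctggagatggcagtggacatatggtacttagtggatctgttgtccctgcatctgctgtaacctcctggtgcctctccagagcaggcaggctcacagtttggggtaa
*Tiam2*, chr17:3483240-3483539 (+): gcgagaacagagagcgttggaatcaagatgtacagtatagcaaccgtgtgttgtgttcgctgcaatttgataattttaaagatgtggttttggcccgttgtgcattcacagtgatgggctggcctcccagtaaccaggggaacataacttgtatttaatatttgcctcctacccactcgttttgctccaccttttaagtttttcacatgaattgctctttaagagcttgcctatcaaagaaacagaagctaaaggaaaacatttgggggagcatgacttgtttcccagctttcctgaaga
The *Pak1* window held 2 CREs, starting at its positions 17 and 69, and a further CRE core at position 56. Over all 32851 mouse promoter windows of this length, 1.79% held a CRE, 0.0396% held at least 2 and 20.8% held a CRE core. No other window of the 8 genes held a CRE or a CRE core. AP-1 elements stood in 1 window of *Tiam1* and 1 of *Vav3*, against 7.81% of all windows. None of the 3 motifs was in the *Tiam2* windows, which says only that these letters are not there. The first of these windows starts at 3396957, inside the gene, whose GENCODE M21 annotation starts at 3326573. The windows of *Tiam1* and *Kalrn* also lie inside their genes. The sequence around the outermost annotated start of these 3 genes was thus not searched.

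Between 1352288 and 18394761 reads were counted on genes per library. Groups and mice follow the titles, which match the mouse, cell type and sample number fields. The free-text description of 10 of the 14 NS and HC libraries names another library's sample number and was not used. *Arc*, which checks the dVenus labels but not the mouse or training group, was higher in dVenus+ than in dVenus- cells in every one of the 19 mice. Its normalized counts (CPM on genes, TMM-scaled) ran from 477 to 1540 in FC dVenus+ and from 0 to 172 in FC dVenus- libraries, and 3 of the latter, from mice 06, 07 and 14, held 1276, 1095 and 2549 *Arc* counts. All 9 granule cell markers, *Prox1* and *Calb1* among them, were detected in every group. Their summed level was lower in dVenus+ cells in 12 of 12 FC, 4 of 4 NS and 3 of 3 HC mice, with medians of 516 against 1243 normalized counts in FC. The summed level of the 9 microglial markers was higher in dVenus+ cells in 12 of 12 FC, 4 of 4 NS and 2 of 3 HC mice, and that of 4 nuclear RNAs such as *Malat1* in all 19 mice. In FC, edgeR called 4 of the 9 granule cell markers tested, 4 of 7 microglial markers and 2 of 3 nuclear RNAs, against 4.35% of all genes. Interneuron markers were lower in dVenus+ cells in 10 of 12 FC mice, with 2 of the 4 tested called, and astrocyte markers in 9 of 12 with 0 of 3 called, while both were higher in 3 of 3 HC mice. The part of these shifts in the differences below was not tested.

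*Tiam2*, a GEF of the Tiam family that is expressed mainly in brain, showed the widest gap of the 9 genes in FC mice. It lies at chr17:3326573-3531344 on the + strand (GRCm38, GENCODE M21), where its end overlaps *Tfb1m* on the other strand, and reads there cannot be told apart without strand. *Tfb1m* had 10 or more counts in 5 of 12 FC dVenus- libraries, at up to 410, and in 2 of 12 FC dVenus+ libraries, at up to 91, which is the direction of *Tiam2*, and in NS and HC it was at 0 in all 7 dVenus+ libraries and at up to 554 counts in dVenus- libraries. In the 12 FC dVenus- libraries it had between 59 and 1645 counts, with a median of 957. In the 12 FC dVenus+ libraries it had 0 counts in 7, and 4, 8, 37, 211 and 234 counts in the other 5. The level was thus lower in dVenus+ cells in 12 of 12 mice, which held for no other of the 9 genes in FC, and the groups overlapped only through the dVenus+ libraries of mouse 10 and the lowest dVenus- libraries. Of all 9709 genes tested in FC, 1.09% were lower in dVenus+ cells in every mouse, and 0.0309% had no overlap in this direction. Mean normalized counts were 57.6 ± 37.0 in dVenus- and 3.11 ± 6.41 in dVenus+ cells (SD, n = 12), and the paired edgeR fit gave a log2 fold change of -5.01 (SE 0.82). A count of 0 in those 7 libraries allows a level of up to 0.374 to 2.22 CPM, for counting error only. *Tiam2* met the count minimum of 10 in all 12 dVenus- but only 3 dVenus+ libraries, so that it passed the filter on low counts through its dVenus- level. In a pool of cells, fewer cells with a transcript and less transcript per cell cannot be told apart.

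**Figure D1:**
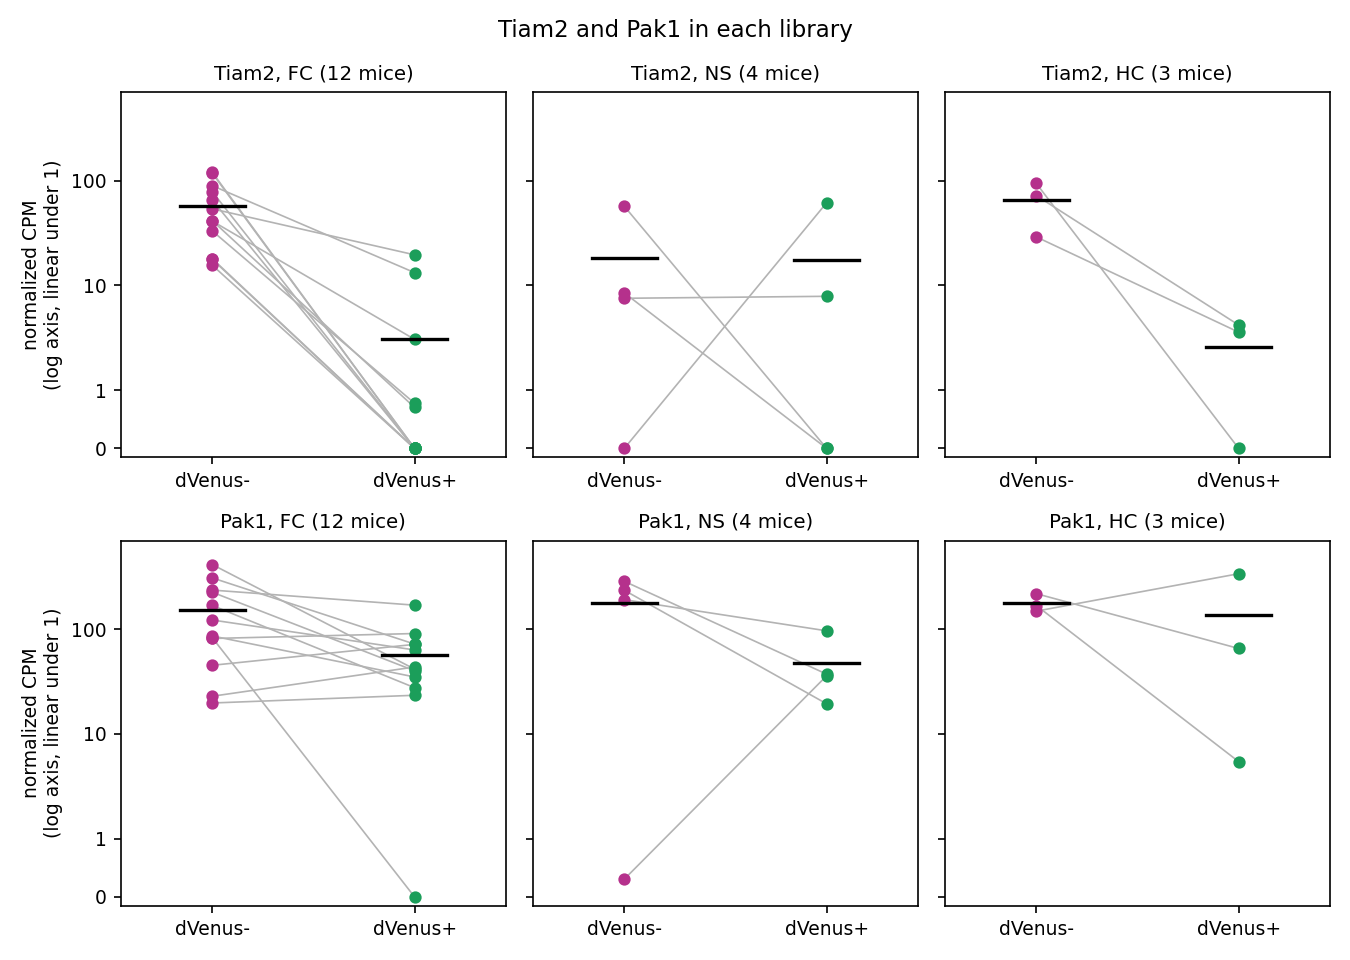
Normalized counts (CPM, y, log axis that is linear under 1) of *Tiam2* (top) and *Pak1* (bottom) in the dVenus- and dVenus+ library of each mouse in FC, NS and HC. Points are libraries, grey lines join the libraries of a mouse and black bars are means. All 12 *Tiam2* lines fall in FC and all 3 in HC, while in NS 1 of the 4 runs from 0 up to 61.4.

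The gap of *Tiam2* was present in each of the 3 FC experiments. All libraries of dVenus+ cells were below all of dVenus- cells in the experiments of 2 and 4 mice, where mean dVenus+ levels were 0 and 0.370 normalized counts. In the experiment of 6 mice they were 5.98 against 47.6, with mice 10, 11 and 13 holding counts above 10 in dVenus+ cells. Fitted alone, the experiments of 4 and 6 mice gave log2 fold changes of -6.93 (SE 1.82) and -3.66 (SE 1.02). Without mice 06, 07 and 14, named above for the *Arc* counts in their dVenus- libraries, a choice made after the values were seen, it was -4.67 (SE 0.97).

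In HC mice *Tiam2* showed a gap of similar size. The normalized counts of mice 15, 16 and 17 were 93.9, 71.9 and 29.0 in dVenus- and 0, 4.18 and 3.58 in dVenus+ cells. The groups did not overlap, which held in this direction for 5.92% of the 7588 genes tested in HC, and the fitted log2 fold change was -4.57 (SE 1.93). NS mice had no common direction. In dVenus- cells of mice 18, 19, 20 and 21 the values were 0, 8.49, 7.53 and 56.9, and in dVenus+ cells 61.4, 0, 7.87 and 0. *Tiam2* was thus lower in dVenus+ cells in 2 of 4 NS mice, and the fitted log2 fold change was -0.57 (SE 2.14). Mouse 18 decided much of this value, which was -2.68 (SE 2.15) without it and 1.20 (SE 2.21) without mouse 21. The dVenus- library of mouse 18 had 7419 genes with any count, against 9647, 8718 and 10540 in those of mice 19, 20 and 21. It held 1 count of *Tiam1*, 0 of *Trio*, 2 of *Pak1* and 39 of *Kalrn*, but 738 of *Rac1* and 2239 of *Pak3*. The NS values of all these genes rest in part on this library. Few genes were also detected in the dVenus- library of HC mouse 16 (7037) and the dVenus+ library of FC mouse 05 (7860). The former held 6 counts of *Tiam1* but 1219 of *Kalrn*. The latter held 0 counts of *Tiam2* and *Pak1*, 1 of *Trio* and 37 of *Kalrn*, but 796 of *Rac1*. HC and FC values rest in part on these libraries.

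*Tiam1*, the other Tiam GEF (chr16:89787111-90143769, - strand), had at least 1 count in all 38 libraries, with a single count, under the floor of 3, in the NS dVenus- library of mouse 18. FC dVenus+ libraries held 23 to 1214 counts (median 313) and FC dVenus- libraries 260 to 2250. It was lower in dVenus+ cells in 8 of 12 FC mice, with a log2 fold change of -0.34 (SE 0.46), and the ranges overlapped in all 3 groups. The fitted values were 0.78 (SE 1.34) in NS and 0.06 (SE 1.68) in HC mice. The *Tiam1* difference was thus within 1 SE of 0 in each group, unlike that of *Tiam2* in FC.

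*Kalrn* (chr16:33969073-34573532, - strand), which codes for the spine GEF Kalirin, had the highest counts of the GEFs. FC dVenus+ libraries held 37 to 9155 counts, with a median of 2042, and the dVenus- libraries 1834 to 6286, with a median of 3474. It was lower in dVenus+ cells in 8 of 12 FC mice, with a log2 fold change of -0.60 (SE 0.35). In NS mice the dVenus+ libraries lay between 146 and 254 normalized counts, a narrower range than the 5.95 to 383 of the dVenus- libraries, and the log2 fold change was 1.19 (SE 0.99). In HC mice it was -1.55 (SE 1.37), with 2 of 3 mice lower. With 1 mouse left out the values ran from 0.36 (without mouse 18) to 1.90 in NS and from -2.65 to -0.49 (without mouse 16) in HC.

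*Trio* (chr15:27730651-28025848, - strand), a GEF related to Kalirin, did not share a direction among the FC mice. Its level was lower in dVenus+ cells in 6 of 12 FC mice and higher in the other 6, and the log2 fold change was 0.08 (SE 0.55). In NS mice 18, 19, 20 and 21 it had 84.8, 49.1, 176 and 15.0 normalized counts in dVenus+ and 0, 26.4, 0.476 and 33.5 in dVenus- cells. In HC mice 15, 16 and 17 the values were 52.9, 18.1 and 3.45 in dVenus+ and 0, 4.03 and 4.09 in dVenus- cells. *Trio* was thus higher in dVenus+ cells in 3 of 4 NS and 2 of 3 HC mice, with fitted values of 2.97 (SE 1.83) and 2.64 (SE 2.24). With 1 mouse left out these ran from 1.31 (without mouse 20) to 5.07 in NS and from 0.79 (without mouse 15) to 4.55 in HC.

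The Vav GEFs couple receptor tyrosine kinases to Rac. *Vav2* (chr2:27262104-27427033, - strand) was close to absent: it had 69 and 7 counts in 2 FC dVenus- libraries and 0 counts in the other 36, and it passed the count filter in no group. *Vav3* (chr3:109340653-109685698, + strand) was at 2 to 773 counts in FC dVenus+ (median 237.5) and at 0 to 614 in FC dVenus- libraries (median 274). It was higher in dVenus+ cells in 8 of 12 FC mice, with a log2 fold change of 1.06 (SE 0.76). The experiment of 2 FC mice went the other way, with 5.92 against 46.1 normalized counts. In NS mice the dVenus+ level of mouse 18 was 100 normalized counts and that of the other 3 at most 1.61, and the log2 fold change of -1.32 (SE 2.18) became -4.40 (SE 2.42) without this mouse. In HC mice *Vav3* fell below the count filter.

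*Rac1* (chr5:143503634-143528036, - strand, overlapping the end of *Daglb*), the GTPase on which these GEFs act, had the highest level per exon length of the 9 genes in every group. FC dVenus+ libraries ranged from 103 to 468 normalized counts and FC dVenus- libraries from 106 to 412. It was higher in dVenus+ cells in 10 of 12 FC mice, but the ranges overlapped almost wholly, and the log2 fold change was 0.51 (SE 0.29). In NS and HC mice it was 0.00 (SE 0.73) and -0.38 (SE 0.94). Against these values the SE of *Rac1* in FC was the smallest of the 8 genes that passed the filter.

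*Pak1* (chr7:97788541-97912381, + strand), a kinase that binds GTP-bound Rac and acts through LIM kinase on cofilin, was lower on average in dVenus+ cells of all 3 groups. FC dVenus+ libraries had 0 to 2697 counts (median 370) and FC dVenus- libraries 91 to 7763 (median 1326). It was lower in dVenus+ cells in 8 of 12 FC mice, at 56.4 ± 43.3 against 151 ± 123 normalized counts (SD, n = 12), with overlapping ranges. The log2 fold change was -1.24 (SE 0.52), and it was -2.37 (SE 1.03) in the experiment of 4 mice and -0.51 (SE 0.62) in that of 6 mice, where 3 mice were lower and 3 higher. In NS mice 18, 19, 20 and 21 the normalized counts were 35.8, 19.4, 96.2 and 37.2 in dVenus+ and 0.305, 235, 191 and 286 in dVenus- cells. In HC mice 15, 16 and 17 they were 65.3, 337 and 5.43 in dVenus+ and 218, 148 and 168 in dVenus- cells. 3 of 4 NS and 2 of 3 HC mice were lower, and the log2 fold changes were -1.38 (SE 1.31) and -1.87 (SE 1.56). With 1 mouse left out they ran from -2.44 to -0.34 (without mouse 19) in NS and from -3.40 to -0.51 (without mouse 17) in HC.

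*Pak3* (chrX:143518591-143797796, + strand), a neuronal Pak, did not follow *Pak1* in FC mice. It was lower in dVenus+ cells in 6 of 12 FC mice and higher in 6, with 249 ± 187 against 180 ± 88.2 normalized counts (SD, n = 12) and a log2 fold change of 0.30 (SE 0.37). In 3 of 4 NS mice and 3 of 3 HC mice it was lower in dVenus+ cells, the latter like 12.3% of all genes tested in HC, and the fitted values were -1.20 (SE 0.94) and -1.02 (SE 0.98).

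**Figure D2:**
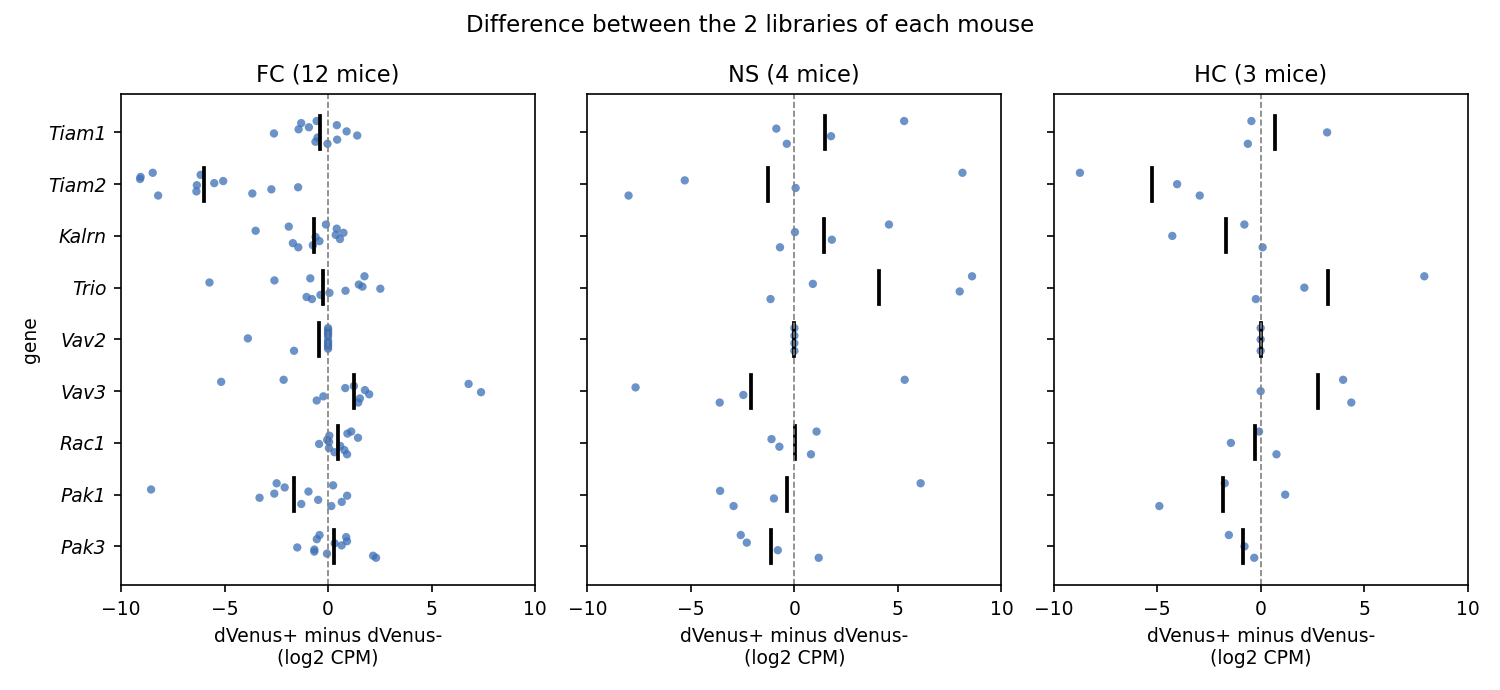
Difference in log2 CPM (x, prior count 2) between the dVenus+ and the dVenus- library of each mouse for the 9 genes (y) in FC, NS and HC mice. Points are mice and black bars are means. The *Tiam2* points of FC mice lie between -9.08 and -1.45, all under 0, and those of NS mice between -8.01 and 8.12.

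With a call taken as an adjusted p under 0.05 and an absolute log2 fold change over 1, 1 of the 8 genes that passed the filter in FC was called, namely *Tiam2*, while 4.35% of all 9709 genes were called and 2.84% called lower, from which nothing is read since this difference was known when the genes were picked. 4 of the 8 had a fitted value below 0 and 4 above. None of the 8 in NS and of the 7 in HC was called, where edgeR called 0.0489% of 8187 genes (0.0122% lower) and 0% of 7588 genes. In HC even *Arc* was not called, at a log2 fold change of 8.335 (SE 1.611), so that no call there says little. In NS none of the 9 was lower in every mouse or without overlap, which held for 7.66% and 2.85% of the genes tested there. The unadjusted p was under 0.05 for 532 genes in HC. DESeq2's Wald test called *Trio* in NS and *Tiam2* in HC, where it called 8% of 8187 and 8.17% of 7588 genes, so that 1 call among 8 and among 7 genes is near the share over all genes. The *Tiam2* difference was 4.23 (SE 2.09) on the log2 scale lower in FC than in NS mice and 0.59 (SE 2.00) lower than in HC mice, while the medians over 14075 genes were -0.428 and -0.577 in these comparisons. These differences between groups were not tested for the 9 genes.

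NS and HC libraries share a sample number prefix, taken as the same experiment, and were compared within a cell type. The choice of the genes did not use this comparison. *Vav2* did not pass the count filter and had no test. None of the other genes of the 9 was called by edgeR's quasi-likelihood test, which called 0% of 8706 genes in dVenus+ and 0% of 8547 in dVenus- cells. The unadjusted p was under 0.05 for 773 and 756 genes. DESeq2 called 110 (1.26%) and 142 (1.66%), none of the 9 among them. *Vav3* in dVenus- cells came nearest, with 16.3 ± 19.4 normalized counts in 4 NS and 0.227 ± 0.393 in 3 HC libraries (SD). Its log2 difference was 5.93 (SE 2.76), with an adjusted p of 0.532 by edgeR. In these cells *Vav3* met the count minimum in 4 of 4 NS but 0 of 3 HC libraries, whose highest count was 7. It thus passed the filter on low counts through its NS level alone, and nothing is read from its being nearest. *Tiam2* was 2.77 (SE 1.81) higher in NS than in HC dVenus+ cells on the log2 scale, with an adjusted p of 0.709 by edgeR. The NS level there came mostly from mouse 18, at 61.4 normalized counts against 0, 7.87 and 0, and without this mouse *Tiam2* fell below the count filter. In dVenus- cells its log2 difference was -1.76 (SE 1.501), with an adjusted p of 0.833. *Rac1* had the smallest SE, and its NS minus HC difference was 0.09 (SE 0.71) in dVenus+ and 0.21 (SE 0.75) in dVenus- cells. These SEs leave wide room for differences that 4 against 3 mice could not show.

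Levels of different genes were set side by side as normalized counts per kilobase of exon. In FC dVenus- cells *Rac1* came first at 52.3 ± 21.9, then *Pak1* at 38.2 ± 31.1, *Pak3* at 18.8 ± 9.24 and *Kalrn* at 14.9 ± 8.64 (SD, n = 12). *Tiam1* followed at 6.97 ± 5.12, *Tiam2* at 4.52 ± 2.91, *Vav3* at 3.93 ± 3.01, *Trio* at 2.45 ± 1.47 and *Vav2* at 0.0422 ± 0.126. The GTPase and its effector kinases were thus above the GEFs, except that *Kalrn* was above *Pak3* when divided by the longest transcript (34.4 against 20.8), and every step from *Rac1* down to *Trio* was smaller than the SD of the higher gene. In FC dVenus+ cells *Tiam2* was at 0.244 ± 0.503 per kilobase, under *Trio* at 3.40 ± 3.37. Across the 6 groups, the order of *Tiam2* ran from HC dVenus- and FC dVenus- over NS dVenus- and NS dVenus+ to FC dVenus+ and HC dVenus+ cells, and the ranges of each neighboring pair overlapped.

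**Figure D3:**
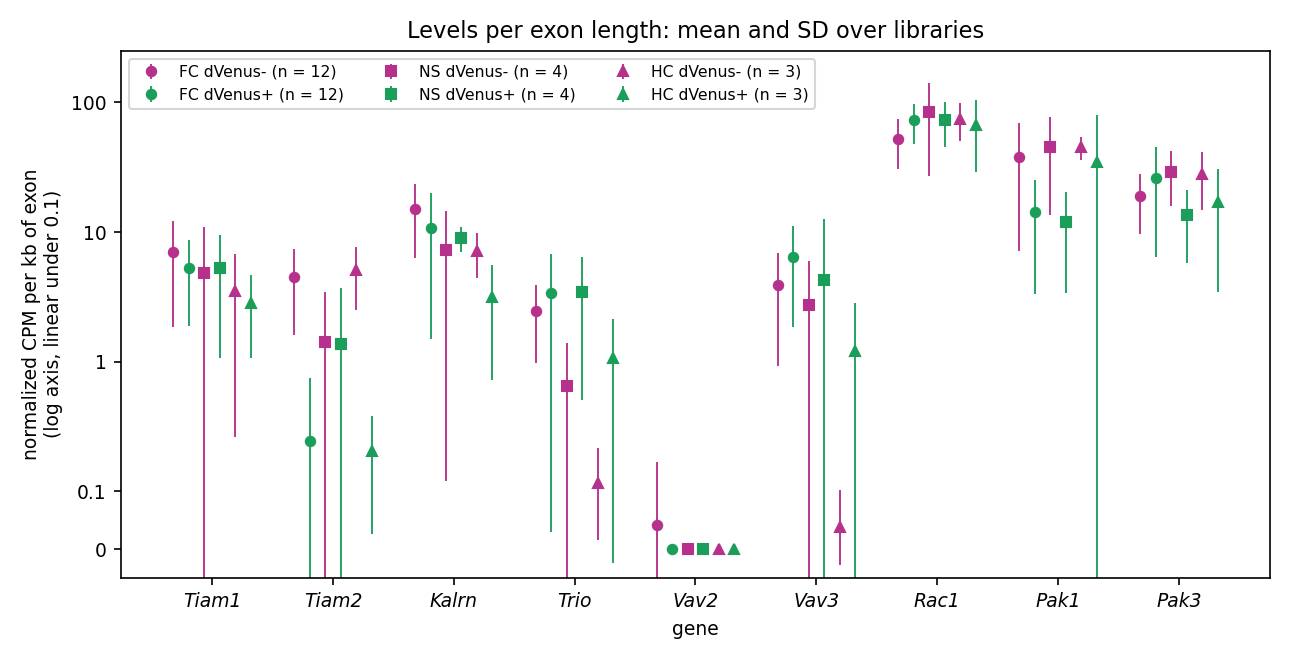
Mean normalized counts (CPM) per kilobase of exon (y, log axis that is linear under 0.1) of the 9 genes in the 6 groups. Error bars are SD over 12 FC, 4 NS and 3 HC libraries, and bars that reach the lower edge pass below 0. *Rac1* stands highest in each group, and *Tiam2* drops from 4.52 in FC dVenus- to 0.244 in FC dVenus+ cells.

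Of 116 further genes around Rac, in 7 sets, 87 could be tested in FC. By edgeR's quasi-likelihood test 7 were called (8.05%, against 4.35% of all genes tested), 6 lower and 1 higher in dVenus+ cells. The 116 genes were chosen with earlier results of these data known, so that no enrichment is read from this share. DESeq2 called 17 of the list and 16.8% of all genes, and the older quasi-likelihood method of edgeR 3 of the list and 1.41% of all genes. The fit without mice 06, 07 and 14 called 3 of the list, namely *Camk2a*, *Camk2b* and *Chn1*, and 1.57% of all genes. The median log2 fold change of the 87 was -0.29, and that of all genes -0.107. *Camk2b* and *Camk2a*, subunits of the calcium/calmodulin kinase that acts upstream of Tiam and Kalirin at synapses and on many other targets, fell by 1.72 (SE 0.34, adjusted p = 0.00318) and 1.15 (SE 0.28, adjusted p = 0.0148) on the log2 scale. *Camk2b* was lower in 12 of 12 and *Camk2a* in 11 of 12 mice. *Chn1*, the GTPase activating protein chimaerin that turns Rac off, fell by 1.64 (SE 0.29, adjusted p = 0.00128) and was lower in 12 of 12 mice, at 337 ± 244 against 971 ± 402 normalized counts.

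The GEFs and the actin regulators gave 1 or no call per set. *Mcf2l*, 1 of the 14 other GEFs tested, fell by 2.71 (SE 0.70, adjusted p = 0.0224), and *Dock9*, which acts on Cdc42 rather than Rac and was 1 of 8 DOCK and ELMO genes, by 2.63 (SE 0.73, adjusted p = 0.0339). *Wasf1*, the WAVE protein that links Rac to the Arp2/3 complex, fell by 1.62 (SE 0.38, adjusted p = 0.0112), as 1 of 19 WAVE and Arp2/3 genes. *Rnd3*, from the set of other small GTPases, rose by 4.73 (SE 1.11, adjusted p = 0.0102) and was higher in 10 of 12 mice, with mean normalized counts of 30.6 ± 32.4 against 7.99 ± 18.5. Without the replicate block the log2 fold change of *Rnd3* was 1.87 (SE 0.87, adjusted p = 0.211), and by DESeq2 it was 7.38. None of the 12 Pak, LIM kinase and cofilin genes was called. *Camk2a*, *Camk2b*, *Chn1*, *Rnd3* and *Wasf1* were called with each single mouse left out, *Mcf2l* in 11 of 12 such fits with an adjusted p of 0.0516 without mouse 01, and *Dock9* in 6 of 12. *Rnd3* was not among the genes called when the count filter asked for 18 rather than 12 libraries.

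**Figure D4:**
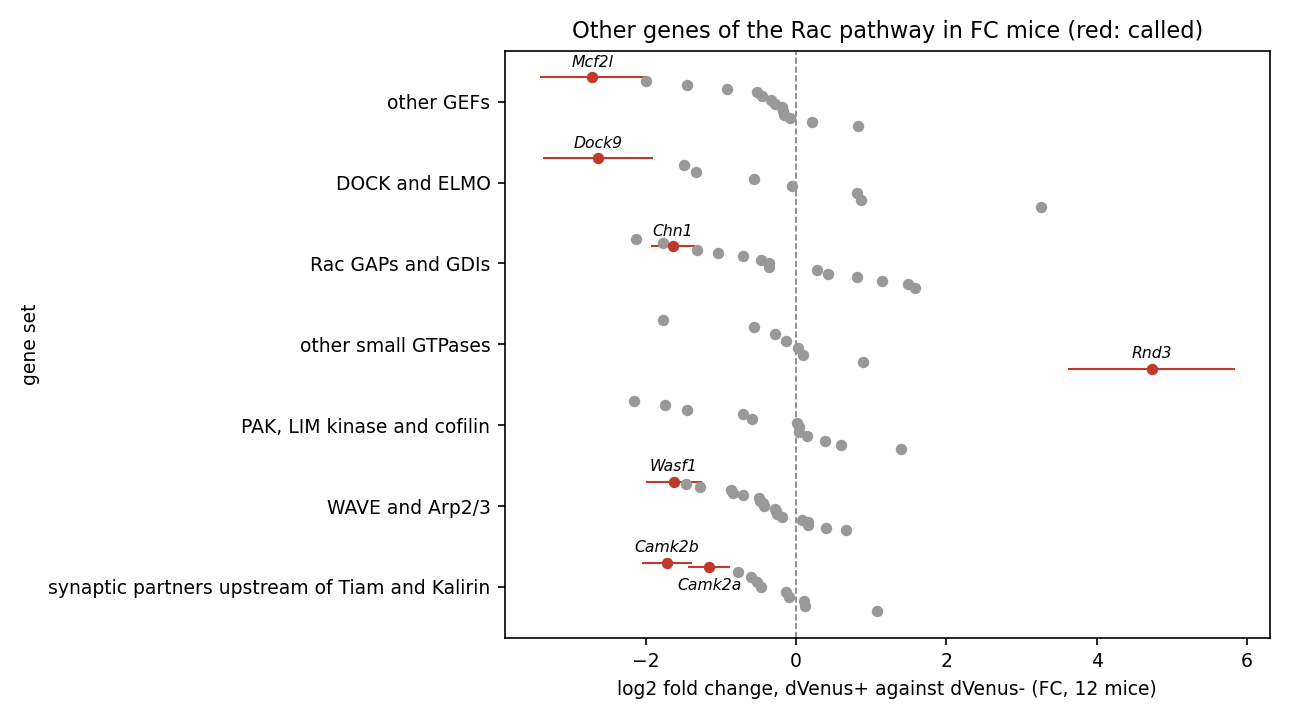
Log2 fold change between dVenus+ and dVenus- cells of 12 FC mice (x) for 87 other genes of the Rac pathway by set (y). Red points with SE bars are the 7 genes called and grey points the 80 others. 6 of the 7 lie left of 0, and *Rnd3* lies at 4.73.

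None of the list was called by edgeR in NS (0 of 85) or HC (0 of 80), where 11 and 6 had an unadjusted p under 0.05, as had 710 of 8187 and 532 of 7588 genes in all. In HC *Arc* was not called either, so that no call there says little. DESeq2 called 7 and 2 of the list, against 8% and 8.17% of all genes. *Chn1* was lower in dVenus+ cells in 4 of 4 NS and 3 of 3 HC mice, with log2 fold changes of -2.22 (SE 0.61, adjusted p = 0.257) and -3.63 (SE 0.97, adjusted p = 0.677). *Wasf1* was lower in 4 of 4 NS mice at -2.06 (SE 0.80, adjusted p = 0.510). *Dock9* had the opposite sign in NS mice, at 3.43 (SE 1.52, adjusted p = 0.553) and higher in 4 of 4, and its difference between FC and NS had an adjusted p of 0.402 by edgeR. All 18 WAVE and Arp2/3 genes tested in NS had fitted values below 0, with a median of -1.15 against 0.0813 over all genes, and 4 of the 18 had an unadjusted p under 0.05. This was the most one-sided of the 7 sets in the 3 groups. Fitted values of this set were below 0 for 14 of 19 genes in FC and 13 of 18 in HC. A shift of the set as a whole was not tested.

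The genes whose level over the 38 libraries was most like that of each of 4 GEFs were ranked by Pearson's r of log2 CPM over 10694 genes, as a description. For *Tiam2* they were *Ptk2b* (r = 0.82), which codes for a calcium-activated focal adhesion kinase, *Tmem14a* (r = 0.77) and *2900011O08Rik* (r = 0.77). For *Kalrn* they were *Bai3* (r = 0.78), *Paf1* (r = 0.77) and *Dagla* (r = 0.76). For *Tiam1* they were *Zc3h11a* (r = 0.75), *Macf1* (r = 0.73) and *Smg1* (r = 0.72), and for *Trio* *9930111J21Rik1* (r = 0.74), *Crx* (r = 0.72) and *Srrm4* (r = 0.72). Among the 9 genes, *Tiam1* and *Kalrn* had an r of 0.63, *Kalrn* and *Trio* of 0.56 and *Tiam2* and *Pak1* of 0.54, while *Tiam1* and *Tiam2* had 0.14. The libraries of a mouse share the animal, and the libraries of an experiment share its preparation.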

How the data were processed

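The authors deposited, for each library, counts of uniquely aligned single reads per gene, without normalization. They aligned to mm10 with TopHat2 2.0.13 and counted on NCBI transcripts with HTSeq 0.6.0, and whether strand was used is not given in the sources used here. The 5 entries that name no gene were left out. Reads outside genes made up 16.4% to 59.7% of the unique reads, and those of ambiguous genes at most 1.58%. A table of the whole series, with counts of the same libraries, was not used.

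Differences were fitted with edgeR 4.0.16 in R 4.3.3 (TMM, estimateDisp, glmQLFit with legacy=FALSE, glmQLFTest, two-sided), separately for FC, NS and HC, with the mouse as block. A gene was tested where 12 (FC), 4 (NS) or 3 (HC) libraries or more reached 10 counts, the last also for NS against HC without a block. P-values were adjusted after Benjamini-Hochberg over all genes tested. Calls needed an adjusted p under 0.05 and an absolute log2 fold change over 1. The newer quasi-likelihood method was kept after the call counts of both methods had been seen, since an earlier account of these data used it, and it is not this version's default. The mouse is a block because both libraries come from 1 animal. As a check, each library's departure from its group mean was correlated with that of its partner, with medians of 0.0387 in FC (3 of 12 pairs over 0.1), -0.0168 in NS and 0.0303 in HC.

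The 9 genes, the 116 pathway genes and the 50 markers were chosen with earlier results of these data known. Named are the 9 genes, the pathway genes called, the 3 genes most correlated with each of *Tiam1*, *Tiam2*, *Kalrn* and *Trio* among genes that reached 10 counts in 12 or more libraries, *Arc*, and markers that moved with them. Scripts were tested on simulated data. Exon lengths and positions are those of GENCODE M21, on the same build as mm10. Alternatives were DESeq2 1.42.0 (size factors and Wald test), other count filters, no block, the older quasi-likelihood method, single experiments, and leaving out mice.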

Additional observations from a re-analysis of the deposited data

Results flagged for a closer look

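In the 16 sets of 4 NS libraries with differing values, the highest or lowest library was set against the others by Dixon's ratio at its 95% critical value. Chance flags about 1 in 20 such sets where values are normally distributed. These counts were skewed, and the rate for them was not computed. In 4 sets 1 library stood apart. *Tiam2* was at 61.4 normalized counts in dVenus+ cells of mouse 18, with the next library at 7.87, and at 56.9 in dVenus- cells of mouse 21, with the next at 8.49. *Vav3* was at 100.5 in dVenus+ cells of mouse 18, with the next at 1.61. *Pak3* was at 89.1 in dVenus- cells of mouse 21, with the next at 318.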

How the results depend on the processing

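The log2 fold changes of the 9 genes between dVenus+ and dVenus- cells moved by less than 1 SD between mice under all 331 combinations of gene and alternative that gave a value. This yardstick is wide, with an SD in NS of 7.1 for *Tiam2*, 5.4 for *Vav3* and 4.9 for *Trio*. Within it *Tiam2* in NS changed sign, from -0.57 to 1.20 without mouse 21, so that the count does not show stable values. *Tiam2* was the 1 gene of the 9 called in FC, and 0 were called under the stricter count filter, which removes it, and with the experiments of 4 or of 6 mice alone, which have fewer mice. Nothing is read from these calls, since this difference was known when the genes were picked and *Tiam2* passed the filter through its dVenus- level. The value of *Tiam2* was -7.23 with the older quasi-likelihood method, -7.21 by DESeq2 and -3.84 without the replicate block. Leaving out each mouse gave -5.68 to -4.69. By DESeq2, 1 of the 8 genes tested was called in NS and 1 of 7 in HC, against 8% and 8.17% of all genes.

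Of the pathway list, 7 genes were called in FC. The count was 17 by DESeq2 (16.8% of all genes called) and 3 with the older quasi-likelihood method (1.41%) or without mice 06, 07 and 14 (1.57%). It was 4, 4 and 1 without the experiments of 2, 4 and 6 mice, 0 with that of 4 or of 6 mice alone, and 6 to 7 with each mouse left out. Without the replicate block 7 were called, with *Arhgap39*, *Elmo1* and *Prex2* in place of *Rnd3*, *Camk2a* and *Dock9*, and in NS 1 was called without it (*Ephb1*). DESeq2 called 7 in NS and 2 (*Elmo1* and *Nckap1*) in HC. The cause of these changes was not tested. The replicate block changed no other count of calls among the 9 genes and the pathway list, while over all genes NS had 4 calls with it and 13 without, and FC 422 with the newer and 137 with the older quasi-likelihood method. *Tiam2* was sixth of the 9 genes per exon length in FC dVenus- cells with each length and scaling tried, at 4.52 per kilobase of exon and 9.41 per kilobase of the longest transcript.

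Libraries of 10 cells varied widely, with a biological coefficient of variation of 1.20 in FC and 1.42 in NS and HC, and 3 or 4 mice leave SEs of 0.73 to 2.24 on the log2 scale for the 9 genes in NS and HC.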
